A study of Homo sapiens with 12 samples.

Results

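Long intergenic noncoding RNAs (LINC names) and antisense RNAs (names ending in AS and a number) were examined in human neural progenitors in which miR-10a or miR-10b was induced. The count files listed 1734 genes with such names, 805 LINC and 929 antisense, among 25718 genes. Members were chosen by level, a mean raw count above 10 over the 12 samples, which left 480 genes, 143 LINC and 337 antisense. Of the other names, 270 had no count in any sample and 984 had counts but a mean of 10 or less. Since the level chose them, their levels are given as a description.

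The cells were H9, an established human embryonic stem cell (hESC) line grown on mouse feeder cells. A lentivirus (multiplicity of infection 50) gave them a doxycycline-inducible copy of miR-10a or of miR-10b. All then went through 14 days of neural induction and were patterned towards the midbrain with SHH at 200 ng/ml and the GSK3 inhibitor CT99021. The study's methods also name SB431542 and noggin for neuralization. The 4 groups had 3 replicates each. The miR-10a dox and miR-10b dox groups received doxycycline from day 11 to day 14. The miR-10a control and miR-10b control groups held the same vector without doxycycline. Per the study the vectors also carry a GFP reporter, and no sequenced group held a GFP-only vector. An effect of doxycycline itself or of the reporter thus cannot be told apart from that of the miRNA. The vectors were carried by separately transduced cultures, so that vector and culture cannot be told apart between the controls. The labels number the replicates and do not say whether they were separate cultures, and p-values measure the spread between these samples only.

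A long noncoding RNA is transcribed and processed much like an mRNA but is not known to encode a protein. Antisense RNAs are read from the strand opposite a neighbouring or overlapping gene, and some are thought to act on that gene in cis. Many are restricted to certain cell types and accumulate at low levels. The miR-10 genes lie within the HOX clusters, and a mature miRNA pairs through its seed, bases 2 to 8, with sites in target RNAs, most often in the 3′ ends of mRNAs. A long noncoding RNA may hold such sites as well.

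The seed of the induced miRNA and its longest matches in the members are shown first, because pairing with the seed is the best-known link in sequence between a miRNA and its targets. The mature miR-10a sequence, from RefSeq, has the seed in capitals, and miR-10b-5p shares this seed.
hsa-miR-10a-5p: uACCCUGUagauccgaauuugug
The match to the whole seed followed by an A is called an 8mer (ACAGGGTA), the match to the seed alone a 7mer-m8 (ACAGGGT), and the match to seed bases 2 to 7 followed by an A a 7mer-A1 (CAGGGTA). The 8mer holds both shorter motifs, and each transcript was counted under its longest match. Of the 480 members, 466 were matched to a gene of GENCODE 44 by RefSeq accession or name. Only the transcribed strand was searched, in the transcript of that gene nearest in length to the counted one. It need not be the same transcript, so that sites and positions hold for the searched sequence only. The 8mer is in capitals in 7 of the 9 members that held one.
FOXD2-AS1: ctgagtcccagACAGGGTAactggcgaggc
LINC00304: cccgcgagggcACAGGGTAcctccgtcctg
LINC00476: atggattcaagACAGGGTAttgaagatgtt
LINC00641: tacctcaaaccACAGGGTAgtctgctaaat
LINC01006: gagccatcatcACAGGGTAcgaagggagga
LIPE-AS1: cagggacaccaACAGGGTAtggtgctgtgc
RAMP2-AS1: tactgcataacACAGGGTActcatatttgt
LINC00261, the abundant member with the clearest fall, held 7mer-A1 matches at positions 2142 and 3871 of a transcript of 4912 bases, shown in capitals.
LINC00261 at 2142: gatatcgtctgCAGGGTActtattaacca
LINC00261 at 3871: gttgctggactCAGGGTAaaagcaggatg
OTX2-AS1, antisense to a forebrain and midbrain homeobox gene, held a 7mer-m8 match.
OTX2-AS1: tttttggagagACAGGGTttcagcatgtt

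Counts on the miRNA genes followed the labels. MIR10A, the miR-10a gene, had 8074, 8801 and 7502 counts in the miR-10a dox samples and 8 to 17 in their controls. MIR10B had 31637, 29615 and 31908 counts in the miR-10b dox samples and 39 to 56 in their controls. Total counts were between 10545487 and 14165426, and every control was deeper than every dox sample of its vector. Replicate 2 of the miR-10b dox group stood apart: the chi-square of its counts against the other replicates, per degree of freedom, was 3.17 and 4.11, against 1.22 to 1.93 in all other pairs of replicates. The counts of members past the threshold in the doxycycline comparisons, and the named calls lost, are given without it as well.

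The members were scarce. Together they took 0.794% of all counts, with 0.771% in the lowest and 0.812% in the highest sample. Their median mean count was 46.8, against 222 over all 11451 tested genes, and 245 of the 480 had a mean under 50 counts. No member was at 0 in any sample. At the filter, TMEM72-AS1 (mean 10.1), LINC00565 and SLC16A1-AS1 (10.2 each) were just inside, while VWA8-AS1 (10.0), LINC01176 (9.92) and LINC00092 (9.83) were just outside. For 19 members the mean was 10 or less without their highest group, so that those had to differ between groups to be kept. In the files 412 members had 1 transcript and 68 had several, and a gene with several transcripts was read from the one with the highest mean.

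Levels were uneven among the members. The 10 with the highest CPM per kilobase of transcript are a mixture of well-known noncoding RNAs and misnamed genes. LINC00657, now named NORAD, which binds PUMILIO proteins and guards genome stability, led with 178. LINC00261, transcribed beside the endoderm and floor plate gene FOXA2 and known from definitive endoderm, followed with 129. LINC01420 stood at 95.5, TPT1-AS1 at 76.4 and OIP5-AS1, the human counterpart of zebrafish cyrano, at 72.4. LINC00493 followed at 61.8, and it and LINC01420 are now annotated as genes for small proteins. LINC01021 (42.5), a p53-induced RNA now named PURPL, came next, ahead of BAIAP2-AS1, LINC00342 and STARD4-AS1 (36.1 to 40.8). The 10 most counted members held 38.1% of all counts on members. Many names have since moved: 114 of the 480 carry another symbol in RefSeq, 55 are now named as divergent transcripts of a neighbour, 19 are protein-coding and 5 are named as hosts of a microRNA.

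Antisense names from the HOX clusters, where the miR-10 genes reside, had almost no counts. The files listed 8 of them. HOXA-AS2, HOXA-AS3, HOXB-AS1, HOXB-AS3, HOXC-AS2, HOXC-AS3 and HOXD-AS2 had no count in any of the 12 samples, and HOXC-AS1 had a mean of 0.0833, a single read. HOXB-AS3 has 8 transcripts in the files and HOXA-AS3 has 2, and a gene with several transcripts can be listed at 0 although it is expressed, so that for these the 0 is no sign of low expression. A count of 0 allows up to 3 counts per sample, or 0.212 to 0.284 CPM (the count scaled to the total of the sample), for counting error only. Of 4 LINC RNAs known from pluripotent cells, none reached a mean above 10, and LINC00458 and LINC01108 among them have 2 transcripts each. Of 5 pluripotency markers DPPA4 alone could be tested, with a mean of 1551 counts. The means of POU5F1, NANOG, TDGF1 and UTF1 were 0 to 2.08, of which only UTF1 has a single transcript in the files.

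Doxycycline with the miR-10a vector moved few members. The test was edgeR's quasi-likelihood test on counts of all 11451 genes, with Benjamini-Hochberg adjustment and a threshold of 0.05. Of the members, 3 passed, or 0.625%, against 1.21% of all tested genes. Of these 1 was higher and 2 were lower, against 0.472% and 0.742% of all genes. At an unadjusted p under 0.05 there were 36 members, or 7.50%, against 11.2% of all genes. In 14.8% of the members every dox sample lay beyond every control in CPM, 37 above and 34 below, against 18.2% of all genes. Without replicate 2 of the miR-10b dox group, which enters through the shared estimate of the spread, 7 members passed.

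With the miR-10b vector 41 members passed, or 8.54%, against 15.3% of all genes. Of the 480, 31 rose (6.46%, against 8.18% of all genes) and 10 fell (2.08%, against 7.15%). The groups did not overlap for 84 members above and 30 below the controls, 23.8% in all, against 28.7% of all genes. The median log2 fold change was 0.0672 over the members and 0.0211 over all genes. Of the 31 members that rose, LINC00029 and C9orf173-AS1 were kept through the miR-10b dox group alone and had to be high there, which leaves 29. Without replicate 2 of the miR-10b dox group 28 members passed, 21 higher and 7 lower, 26 of them among the 41, and DESeq2 called 17, 11 higher and 6 lower, with no adjusted p for 9 of the 41. For the average of both effects 38 members passed, or 7.92%, against 13.9% of all genes, with 27 higher and 11 lower, against 7.67% and 6.22% of all genes. Of these 3 were kept through 1 group alone. DESeq2 called 17 there too, and without replicate 2 of the miR-10b dox group 35 passed, 31 of them among the 38. In total 49 members passed in at least 1 of the doxycycline comparisons.

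**Figure D1:**
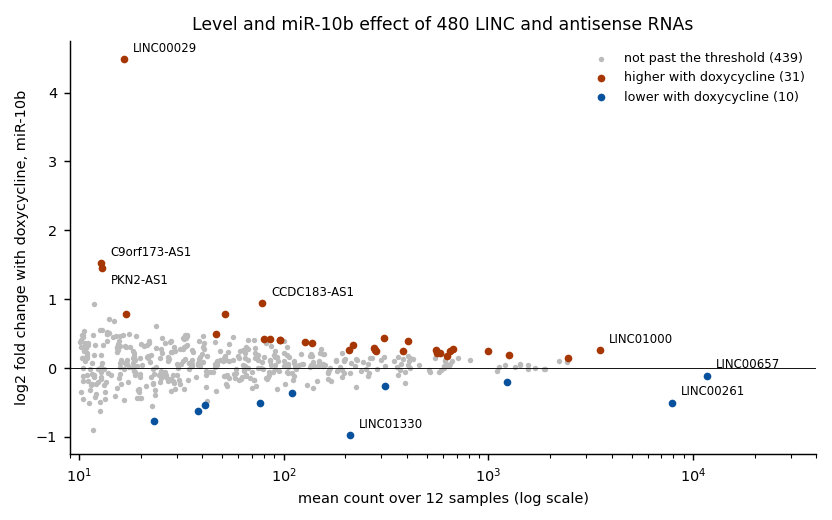
Mean count over the 12 samples (log axis) against the log2 fold change with doxycycline in miR-10b cells, 1 point for each of the 480 LINC and antisense RNAs. The 31 higher (brown) and 10 lower (blue) members past an adjusted p of 0.05 spread over the whole range of levels, and small changes pass at high counts alone.

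The lower share of calls among members went with their lower counts. Members with a mean of 10 to 30 counts passed with miR-10b in 5 of 184 cases, or 2.72%, against 3.56% of all genes in that range. Those with 30 to 100 counts passed in 6.80%, against 5.85%. Between 100 and 300 counts the shares were 10.6% and 11.6%, between 300 and 1000 counts 24.4% and 20.4%, and at 1000 counts or more 31.6%, 6 of 19 members, and 30.1%. The median standard error of the log2 fold change fell from 0.284 in the lowest range to 0.0405 in the highest. Within a range of levels the shares of members thus lay on both sides of those of all genes, and small changes of the scarce members were not detectable at this depth.

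**Figure D2:**
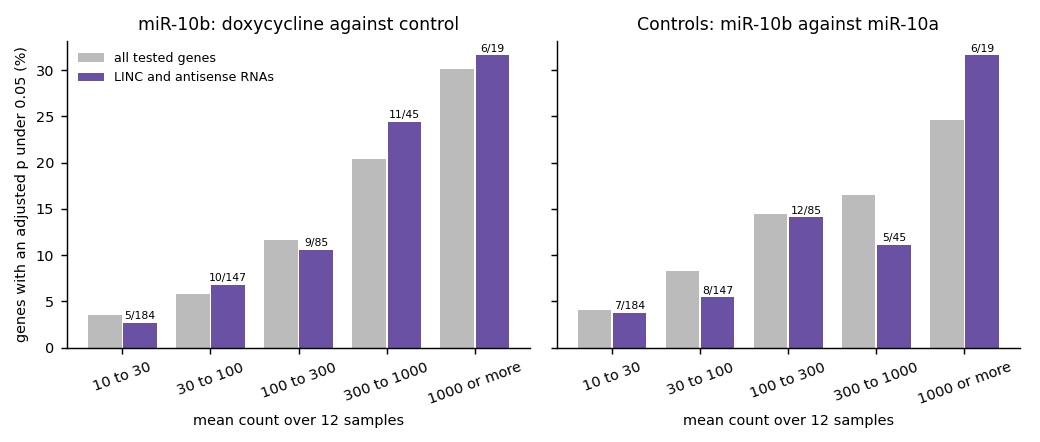
Percent of genes with an adjusted p under 0.05 (vertical axis) by mean count over the 12 samples, for all tested genes (grey) and for LINC and antisense RNAs (purple, with the number called over the number in the range). With miR-10b the purple bars rise from 2.72% to 31.6% and stay near the grey ones, which rise from 3.56% to 30.1%.

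LINC00261 was the abundant member that fell with both vectors. The gene (NR_001558) lies on chromosome 20 from 22528301 to 22559280 (GRCh37, minus strand), 2356 bases from FOXA2. It had 5884, 6282 and 5632 counts in the miR-10a dox samples and 7605, 8312 and 7780 in their controls, and 6889, 6492 and 7151 in the miR-10b dox samples against 10280, 11144 and 10781. Every dox sample was below every control of its vector. In CPM the level went from 607 ± 18.6 to 529 ± 7.75 (SD, n = 3 each) with miR-10a, and from 817 ± 7.81 to 577 ± 18.9 with miR-10b. The change on the log2 scale was -0.20 (standard error 0.03, adjusted p = 0.00016) with miR-10a and -0.50 (0.03, adjusted p = 9.4e-15 from edgeR) with miR-10b. The fall was larger with miR-10b, by -0.30 on the log2 scale (adjusted p = 4.2e-05, edgeR's test of the difference), in a comparison that started from a higher control.

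FOXA2, a regulator of floor plate and endoderm, did not pass the test with either vector: its log2 fold change was 0.02 with miR-10a (adjusted p = 0.98) and 0.21 with miR-10b (adjusted p = 0.25), on a transcript with a mean of 94.5 counts and 1 of 2 in the files. Markers of other cell types moved in the same samples. TTR, an endoderm and choroid plexus marker, fell with miR-10b (log2 fold change -0.55), as did the floor plate protease CORIN (-0.77) and the mesenchymal collagens COL1A1 (-0.60) and COL3A1 (-0.21), which were 2 of 6 tested mesenchyme and neural crest markers. Of 5 endothelial and endoderm markers 2 could be tested and 1 fell, and their summed level was 13.5 to 14.3 CPM in the miR-10b controls and 9.1 to 11.2 in the dox samples, against 8.4 to 9.9 and 6.6 to 8.5 with miR-10a. Of 9 ventral midbrain markers 7 could be tested and 1 fell, with sums of 1355 to 1379 and 1303 to 1363 CPM in the miR-10b groups and LMX1B, with 3 transcripts in the files, at 0 in all samples. Of 7 tested neural progenitor markers 3 passed with miR-10b: SOX3 (-0.40) and NES (-0.14) fell and MSI1 rose (0.10). These 3 had means of 1427 to 58332 counts. Beside these marker counts, 15.3% of all tested genes passed with miR-10b, and 30.1% of those with 1000 counts or more. Whether a change in cell types took part in the fall of LINC00261 was not tested. Fewer cells of a type and less RNA per cell cannot be told apart in bulk samples.

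LINC01330 had the largest fall among members past the threshold with miR-10b. It (NR_033843) lies on chromosome 3 from 167582561 to 167641799 and is now annotated as LRRC77P, a pseudogene of the leucine-rich repeat family. Its counts were 145, 156 and 130 in the miR-10a dox samples and 253, 233 and 268 in their controls. With miR-10b they were 153, 121 and 149 against 269, 331 and 319. The groups were separate with both vectors. Log2 fold changes were -0.59 (standard error 0.10, adjusted p = 0.00049) and -0.97 (0.10, adjusted p = 3e-09, edgeR), and the difference between the vectors, -0.38, did not pass (adjusted p = 0.20). LINC00261 and LINC01330 were the only members called with each vector on its own, and kept both calls in every alternative fit.

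LINC00029 was the member with the largest rise, with miR-10b. The gene (NR_028295) lies on chromosome 20 from 61665569 to 61668380, with the neural basic helix-loop-helix gene BHLHE23 as the nearest coding gene at 27182 bases. It had 52, 64 and 53 counts in the miR-10b dox samples and 5, 2 and 1 in their controls, and 2, 2 and 4 against 5, 6 and 3 with miR-10a. All other groups stayed at 6 counts or fewer, near the floor of 3. Summed over replicates, 169 counts faced 8, a ratio of 23.4 in CPM with a 95% exact interval of 11.6 to 55.1 for counting error. It was kept through the miR-10b dox group alone, since its mean in the other groups was 3.33 counts, so that it had to be high there and its change is given as a description. The fitted values were 4.48 on the log2 scale with miR-10b and -0.57 with miR-10a. It held none of the seed matches.

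**Figure D3:**
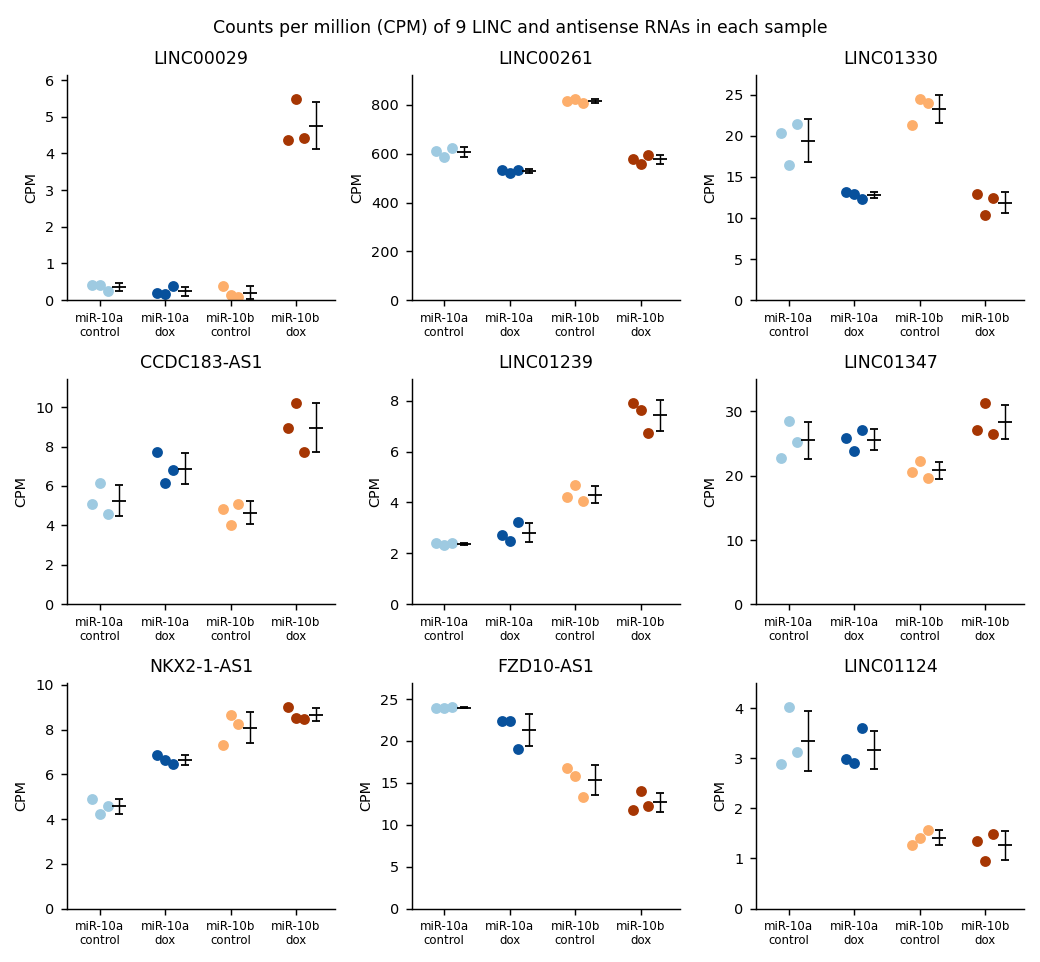
CPM in each of the 12 samples for 9 LINC and antisense RNAs, 1 point per sample by group, with the mean and SD (n = 3) in black beside them. LINC00029 is near 0 except in the 3 miR-10b dox samples (mean 4.76), LINC00261 and LINC01330 are lower in the dox samples of both vectors, and FZD10-AS1 and LINC01124 are lower in the miR-10b controls than in the miR-10a controls.

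Among other members that rose with miR-10b, several were antisense RNAs of low level. C9orf173-AS1, now STPG3-AS1, had 20, 25 and 26 counts in the miR-10b dox samples and 9, 8 and 10 in their controls, or 1.53 on the log2 scale. It too was kept through that group alone, with a mean of 9.22 counts in the others, and the change is a description. With miR-10a it had 11, 14 and 11 counts against 12, 4 and 4, which did not overlap in CPM and did not pass (1.05, adjusted p = 0.25). PKN2-AS1, antisense to a protein kinase gene, had 21, 13 and 16 against 4, 7 and 9 counts (1.45, adjusted p = 0.0039), and CCDC183-AS1 had 106, 119 and 93 against 61, 54 and 68 (0.94, adjusted p = 8.5e-06). For both, the miR-10b dox samples lay above all 3 controls, while their miR-10a groups overlapped. LINC01239 rose from 4.31 ± 0.317 to 7.43 ± 0.614 CPM (0.78, adjusted p = 8e-05). MLLT4-AS1, now AFDN-DT, GABPB1-AS1, LINC01089, LINC01347, LINC01521 and LINC01000 rose by 0.25 to 0.44, and each kept its call in every alternative fit in which it was tested. Of these, GABPB1-AS1 (-0.18), LINC01347 (-0.29) and LINC01000 (-0.17) passed as lower in the miR-10b than in the miR-10a controls. Their rises thus started from lower levels.

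The members that fell with miR-10b were fewer. LINC00312 had 16, 20 and 20 counts in the miR-10b dox samples and 38, 25 and 43 in their controls (-0.77, adjusted p = 0.025), DLGAP1-AS1 33, 27 and 26 against 45, 49 and 53 (-0.62, adjusted p = 0.016), and LINC00963 46, 67 and 48 against 82, 81 and 91 (-0.51, adjusted p = 0.018, edgeR). None of these groups overlapped in CPM. In counts thinned to equal totals LINC00312 (adjusted p = 0.12) and LINC00963 (0.076) lost their calls, and without replicate 2 of the miR-10b dox group DLGAP1-AS1 did (0.055). LINC00657 (NORAD) fell by 0.11 on the log2 scale with miR-10b (adjusted p = 0.015), from 985 ± 17.7 to 913 ± 42.0 CPM, on a mean of 11724.5 counts, and did not pass without that replicate (0.078). HNRNPU-AS1 had -0.20 (adjusted p = 0.0009), and its accession is now assigned to HNRNPU itself, the gene of a nuclear RNA-binding protein. STAM-AS1, TRAF3IP2-AS1 and RHPN1-AS1 passed as lower too, and none of these did without that replicate (adjusted p = 0.21, 0.11 and 0.11). TRAF3IP2-AS1 also lost its call in thinned counts (0.066) and with summed transcripts (0.052).

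**Figure D4:**
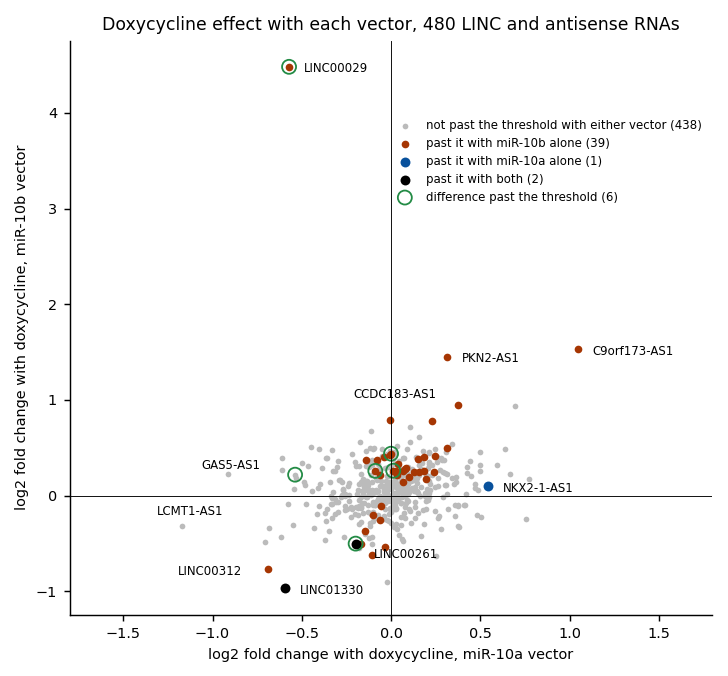
Log2 fold change with doxycycline in miR-10a cells (horizontal) and miR-10b cells (vertical), 1 point for each of the 480 LINC and antisense RNAs, coloured by which of the tests it passed, with green rings where the difference between the vectors passed. LINC00029 lies at 4.48 on the miR-10b axis, and LINC01330 and LINC00261 are below 0 on both axes.

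The difference between the vectors passed for 6 members, or 1.25%, against 1.96% of all genes. The effect of miR-10b was the higher one in 5 and the lower one in 1, against 0.576% and 1.38% of all genes. Besides LINC00029 and LINC00261 these were LINC01000, LINC01347, LINC00174 and GAS5-AS1. Without doxycycline LINC01000 (-0.17), LINC01347 (-0.29) and LINC00174 (-0.25) were lower in the miR-10b than in the miR-10a controls, and each passed that test. Their differences thus started from unlike controls. LINC01000 had 3519, 3754 and 3683 counts in the miR-10b dox samples against 3349, 3475 and 3309, and 3248, 3347 and 3200 against 3488, 4265 and 3558 with miR-10a. The difference was 0.25 (adjusted p = 0.0078). For GAS5-AS1, antisense to the growth arrest RNA GAS5, counts were 46, 54 and 37 in the miR-10a dox samples against 72, 86 and 73, and 62, 67 and 78 against 64, 64 and 69 with miR-10b. In CPM every miR-10a dox sample was below and every miR-10b dox sample above its controls, and the difference was 0.76 (adjusted p = 0.045). GAS5 itself had log2 fold changes of -0.01 with each vector. LINC00029, kept through its highest group, had to differ, which leaves 5. Without replicate 2 of the miR-10b dox group 4 members passed, while GAS5-AS1, LINC00174 and LINC01347 did not (adjusted p = 0.056, 0.090 and 0.096), and DESeq2 called LINC00261 and LINC01000 and gave no adjusted p for LINC00029 and GAS5-AS1.

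Antisense RNAs whose names begin with the symbol of a patterning factor or factor family were 53, of which 17 were members. The match is by letters alone and takes in PAXBP1-AS1 and PAXIP1-AS1, whose partners encode PAX-interacting proteins. With miR-10b 4 of the 17 rose, or 23.5%, and none fell, against 8.18% and 7.15% of all genes, with a median log2 fold change of 0.0974. The 4 that rose had means of 208 to 382 counts. Of all genes with 100 to 300 counts 11.6% passed in either direction, and of those with 300 to 1000 counts 20.4%. For the average of both vectors 4 rose as well. OTX2-AS1 had 250, 252 and 286 counts with miR-10b dox and 265, 243 and 221 in the controls, and the groups overlapped in CPM although the test passed (0.26, adjusted p = 0.038). ZFHX4-AS1, antisense to a neural zinc finger homeobox gene, went from 32.1 ± 0.817 to 38.1 ± 1.90 CPM (0.25, adjusted p = 0.0053) and ZEB1-AS1, antisense to a regulator of epithelial-mesenchymal transition, from 20.8 ± 0.414 to 25.4 ± 0.928 (0.29, adjusted p = 0.0055). LHX4-AS1 had 0.26 (adjusted p = 0.026, and 0.15 without replicate 2 of the miR-10b dox group). The calls of OTX2-AS1 and LHX4-AS1 were not past the threshold in DESeq2 (adjusted p = 0.13 and 0.088).

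NKX2-1-AS1 was the member that rose with miR-10a. It lies on chromosome 14 from 36988483 to 36992221, antisense to NKX2-1, a homeobox gene of the ventral forebrain. It had 76, 80 and 68 counts in the miR-10a dox samples and 61, 60 and 57 in their controls, or 6.65 ± 0.219 against 4.57 ± 0.333 CPM, without overlap. On the log2 scale the rise was 0.55 (standard error 0.14, adjusted p = 0.037), and 6 of the 12 fits that left out 1 sample kept the call. With miR-10b the values were 8.66 ± 0.298 and 8.08 ± 0.698 CPM (0.10, adjusted p = 0.64), and the difference between the vectors did not pass (adjusted p = 0.24). NKX2-1 had a log2 fold change of 0.70 with miR-10a on a mean of 18.3 counts (adjusted p = 0.32).

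Of the 5 members now named as microRNA hosts, 1 passed with miR-10b, against 15.3% of all genes. On a list of noncoding host genes, members or not, 3 of the 10 tested passed: LINC00599 rose, and MIR17HG (-0.26, adjusted p = 0.013) and MIR210HG (-0.37, adjusted p = 0.014, edgeR), which are no members, fell. LINC00599, the host of miR-124-1, a miRNA of neurons, had 1478, 1289 and 1342 counts in the miR-10b dox samples against 1382, 1239 and 1366, which differed in CPM without overlap (0.19, adjusted p = 0.020). In DESeq2 it did not pass (adjusted p = 0.20). Of 7 neuron markers 5 could be tested, and 1 of them, MAP2, rose in the same comparison (0.28). TUBB3 (0.22, adjusted p = 0.16), STMN2, RBFOX3 and SNAP25 did not pass. The sum over the 7, 373 to 399 CPM in the controls and 453 to 495 with dox, was mostly MAP2, with means of 357 and 434 CPM. The part of neurons in the result was not tested. LINC00461, the host of miR-9-2, had 20, 16 and 18 against 22, 19 and 32 counts (-0.29, adjusted p = 0.54). Outside the members, RMST, a noncoding RNA of neural progenitors, was lower with miR-10a (-0.25) and miR-10b (-0.21).

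The gene named before AS was in the files for 333 of the 337 antisense members and could be tested for 221. Of the 112 others 106 had several transcripts in the files, among them ZEB1 with 6 transcripts and no count, so that a low count for such a gene is no sign of low expression. With miR-10b 12 of these 221 antisense RNAs passed, or 5.43%, and 40 of the partners, or 18.1%, against 15.3% of all genes. Both did in 6 pairs, or 2.71%, of which 3 moved in the same direction. CCDC183-AS1 rose with CCDC183 (0.94 and 0.41), as did ZFHX4-AS1 with ZFHX4. TTC28-AS1 and TTC28 were both higher, but the call of TTC28-AS1 (0.25, adjusted p = 0.025) was lost with summed transcripts (0.09, adjusted p = 0.39), in DESeq2 (0.091) and in thinned counts (0.076). STARD4-AS1 rose by 0.14 while STARD4, a cholesterol carrier, fell (-0.26). PKN2-AS1 rose while PKN2 fell (-0.19), and RHPN1-AS1 fell while RHPN1 rose (0.20). STARD4-AS1 and RHPN1-AS1 did not pass in DESeq2 (adjusted p = 0.079 and 0.066). Across the 221 pairs Pearson's r of the log2 fold changes was 0.215, a description over pairs that share libraries and overlapping positions. The sources used here give no strand setting for the counting, so that reads of overlapping partners cannot be told apart. Over all members, 24 had more than 50% of their exonic bases in an exon of the other strand.

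A match to the whole seed, an 8mer or a 7mer-m8, was found in 81 of the 466 members with a transcript sequence, 17.4%, against 10.5% of 1217 LINC and antisense RNAs that were not kept, whose transcripts were shorter (median 1072 against 2004 bases). The 8mer itself was rare. It was found in 9 members, 1.93% (95% exact interval 0.887 to 3.63%), against 0.904% of those not kept. A 7mer-m8 was the longest match in 72 members, or 15.5% against 9.61%, and 361 had none of the 3 motifs. The median log2 fold change with miR-10b was 0.180 for the 9 members with an 8mer (quartiles -0.0139 and 0.347). It was 0.0486 for the 72 with a 7mer-m8 (-0.0867 and 0.223). For the 24 with a 7mer-A1 it was -0.0752 (-0.133 and 0.185). For the 361 with none it was 0.0748 (-0.0658 and 0.218), against 0.0211 over all tested genes. The quartiles of all 4 classes thus overlapped. Of the 10 members that fell with miR-10b 3 had a 7mer-m8, 1 a 7mer-A1, none an 8mer and 5 no motif. The remaining member was not matched to a transcript and was not searched. Of the 9 members with an 8mer 2 rose, against 6.46% of all members and 8.18% of all tested genes. LINC00304 had 27, 22 and 20 counts against 14, 16 and 14 (0.79, adjusted p = 0.036) and LINC00476 637, 676 and 651 against 646, 640 and 647 (0.17, adjusted p = 0.033, edgeR), both with higher CPM in all dox samples. Both calls were lost without replicate 2 of the miR-10b dox group (adjusted p = 0.066 and 0.14), LINC00476 did not pass in DESeq2 (0.12), and DESeq2 gave LINC00304 no adjusted p. For the average of both vectors LINC00476 rose by 0.18 (adjusted p = 0.0012, edgeR). It kept that call in every alternative fit that gave it a value, while LINC00304 did not pass for the average. LINC00641, with an 8mer as well, had a log2 fold change of -0.01 with miR-10b. The transcript of LINC00476 searched here has 2825 bases, against 8014 in the files, so that part of it was not searched.

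The uninduced cultures of the vectors were compared as well. Between miR-10b control and miR-10a control 38 members passed, or 7.92%, against 14.1% of all genes. With miR-10b 21 were higher and 17 lower, against 7.41% and 6.72% of all genes. In CPM 43 members lay above and 57 below without overlap, 20.8% against 30.1%. This comparison uses the same control samples as those above, so that its values are not independent of them. LINC00261 was higher in the miR-10b controls by 0.43, while its neighbour FOXA2 did not pass (0.34, adjusted p = 0.059). Of the 7 tested ventral midbrain markers 5 were higher there, among them FOXA1 (0.53) and CORIN (1.61), and of the 2 tested endothelial and endoderm markers 1 was, TTR (1.33). Of the 17 members antisense to patterning factors by name 5 were higher and 1 lower, with a median of -0.0586. OTX2-AS1 (157 to 171 against 221 to 265 counts), NKX2-1-AS1 and FOXD2-AS1 were higher by 0.55, 0.83 and 0.56. PAXBP1-AS1 was lower (-0.28, adjusted p = 0.029, edgeR). SOX21-AS1, antisense to a progenitor factor, was higher by 0.18 and LINC00461, the miR-9-2 host, by 1.31, on 19 to 32 against 5 to 14 counts. Of the 10 tested on the list of noncoding host genes 2 were higher and 1 lower. The lower one was LINC01158 (-0.25, adjusted p = 0.048, edgeR).

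LINC01124 and FZD10-AS1 were lower in the miR-10b controls. LINC01124, 770 bases from the Wnt-induced transcription factor gene SP5, had 36, 57 and 39 counts in the miR-10a controls and 16, 19 and 21 in the miR-10b controls, or -1.24 on the log2 scale (standard error 0.22, adjusted p = 5.4e-05). SP5 itself differed by -1.50. FZD10-AS1, beside the Wnt receptor gene FZD10, had 298, 339 and 300 against 211, 214 and 177 counts (-0.65, adjusted p = 4.8e-07), and FZD10 had -0.95. FZD10-AS1 also passed for the average doxycycline effect (-0.22, adjusted p = 0.020), where FZD10 had -0.02 (adjusted p = 0.86), and its miR-10b dox and control samples overlapped. LINC01239 was higher in the miR-10b controls by 0.86, as was DMRTA1, its nearest coding gene, by 0.86.

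In this comparison 14 of the 221 antisense RNAs passed, or 6.33%, and 43 of their partners, or 19.5%, against 14.1% of all genes. Both did in 6 pairs, or 2.71%, all in the same direction. FOXD2-AS1 was higher by 0.56 and FOXD2 by 0.65, and NKX2-1-AS1 by 0.83 and NKX2-1 by 0.94. The others were FZD10-AS1, given above, and DLG5-AS1, EPB41L4A-AS2 and SOX21-AS1. Pearson's r across the pairs was 0.428, against 0.215 for miR-10b dox, with no test of the difference. Markers of mesenchyme and neural crest differed as well: 5 of 6 tested were higher in the miR-10b controls, with sums of 157 to 161 CPM with miR-10a and 370 to 389 with miR-10b. Of 7 tested neural progenitor markers 5 passed between the controls. SOX1 (-1.23) and SOX3 (-0.76) were lower in the miR-10b controls, while SOX2, NES and VIM were higher (0.13 to 0.19). DPPA4, the pluripotency marker that could be tested, was lower there (-0.43). The part of these markers in the differences between the controls was not tested.

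**Figure D5:**
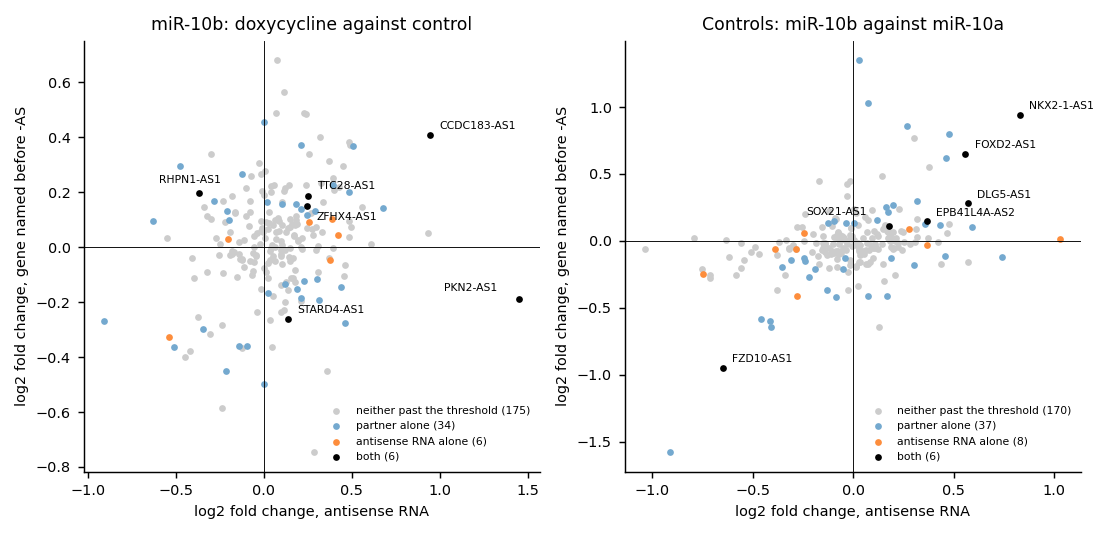
Log2 fold change of antisense RNAs (horizontal) and of the gene named before AS (vertical) for 221 pairs, with doxycycline in miR-10b cells (left) and between the controls (right), coloured by which of the pair passed an adjusted p of 0.05. The 6 pairs in black on the left lie on both sides of 0 in 3 pairs, and the 6 on the right all share a direction.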

How the data were processed

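Per the labels and the study's methods, poly(A) RNA of 12 samples of H9-derived cells was sequenced as single-end reads and mapped to hg19. The authors deposited raw read counts per RefSeq transcript, 1 file per sample. The submitters' processing notes name STAR, Subread and featureCounts. The strand setting is not given in the sources used here. The methods and the labels name different extraction and library kits. The counts are not normalized. After 3698 repeated rows were dropped, 48101 transcripts were left of 51799 rows per file. A gene with several transcripts was read from the one with the highest mean count, giving 25718 genes. Transcripts with gene symbols that start with LINC and a number or end in AS and a number were taken, and those with a mean above 10 counts were kept. The members and lists were chosen with earlier results of these data known.

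The test was the quasi-likelihood test of edgeR 4.0.16 (R 4.3.3, glmQLFit and glmQLFTest), with Benjamini-Hochberg adjustment over 11451 genes whose mean exceeded 10 counts and a threshold of 0.05. Library size was the total count, since the study scaled to total reads, and a single fit held the means of all 4 groups. Compared were dox and control of each vector, the average and the difference of these effects, and the controls of the vectors. The code was tested on simulated counts. Alternatives were TMM factors, DESeq2 1.42.0, minimum means of 1 and 50 counts, the replicate number as a block, summed transcripts, the samples of a contrast alone, counts thinned to the smallest total, and each sample left out in turn. Totals were 10545487 to 14165426 counts, so that 3 counts are 0.212 to 0.284 CPM. Intervals and floors cover counting error only, since reads without molecular identifiers are not independent molecules. Positions and transcript sequences came from GENCODE 44 on GRCh37, with genes matched by RefSeq accession or name. The sequence searched was the transcript nearest in length to the counted one. Current names and the miRNA came from RefSeq tables. The mature entry of miR-10b-5p was not used here. Other steps used Python 3.11.15, pandas 2.3.3, scipy 1.17.1 and matplotlib 3.10.9.

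Named members were those with the largest changes among those past the threshold (16 for the average effect, up to 6 for each other contrast), the 10 highest per kilobase, those nearest the filter, and members of fixed lists or antisense to patterning genes. DLG5-AS1, DLGAP1-AS1, FZD10-AS1, GABPB1-AS1, LINC01089, LINC01521, RHPN1-AS1, TRAF3IP2-AS1 and TTC28-AS1, and the members with a seed match, were named after their values were seen.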

Additional observations from a re-analysis of the deposited data

Results flagged for a closer look

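The effect of doxycycline differed between the vectors for 6 members by the test of the difference itself (edgeR's quasi-likelihood test, miR-10b minus miR-10a, log2 scale). LINC00029 had the largest difference, 5.05, with 52 to 64 counts in the miR-10b dox samples against 6 or fewer in every other sample. It was kept through the miR-10b dox group alone, with a mean of 3.33 counts in the other groups, so that it had to differ and the value is a description. GAS5-AS1 differed by 0.76, LINC01347 by 0.44, LINC00174 by 0.35 and LINC01000 by 0.25. LINC01347, LINC00174 and LINC01000 were also lower in the miR-10b controls than in the miR-10a controls, so that their effects started from unlike levels. LINC00261 differed by -0.30, since it fell with both vectors and further with miR-10b. LINC00261 and LINC01000 kept an adjusted p of 0.05 or less in all 12 fits that left out 1 sample. GAS5-AS1 did so in 1, LINC01347 in 5 and LINC00174 in 6 of the 12 fits. Among all tested genes 1.96% passed this test, and 1.25% of the members did.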

How the results depend on the processing

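Depth limits the scarce members most: 245 of 480 have a mean under 50 counts, and the median standard error of a log2 fold change is 0.284 in the lowest range with miR-10b. No call of a named member reversed: of 1292 alternative values, 1097 stayed past the threshold in the same direction and 195 fell short of it. Members past it numbered 3, 41, 38, 6 and 38 for miR-10a, miR-10b, their average, their difference and the controls. DESeq2 gave 17, 17, 2 and 25 for the last 4, and gave no adjusted p for 9, 7, 2 and 1 of the calls. With DESeq2 64.7% of the miR-10b calls were higher, against 75.6%, and 50.0% of those for the difference, against 83.3%. DESeq2 and the replicate block each called 2 members with miR-10a, both lower. The samples of the contrast alone gave 5 for miR-10a, and counts thinned to the smallest total 3 for the difference. Leaving out each sample in turn gave 2 to 7 for miR-10a (7 without miR-10b dox replicate 2), 26 to 43 for miR-10b (26 without miR-10b control replicate 3 and 27 without replicate 2), 25 to 35 for the average (25 without miR-10b control replicate 2), 3 to 6 for the difference (3 without miR-10a dox replicate 1 or 2, miR-10a control replicate 2 or 3, or miR-10b control replicate 3) and 25 to 44 for the controls (25 without miR-10a control replicate 2). Same-numbered samples did not deviate together (r -0.0293 to 0.0126). No pairing by number was thus seen, though correlations over all tested genes cannot exclude it. A replicate block gave 2, 41, 35, 6 and 38. Calls kept in every fit that gave them a value in all alternatives numbered 2, 12, 14, 2 and 20. The share of members with a seed match was 1.93% for the 8mer, 17.4% with the 7mer-m8 and 22.5% with any match. The causes of these changes were not tested.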

Other observations

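Members now named as divergent transcripts, which start near a gene's promoter and run the other way, were 55. With miR-10b 3 rose (MAN1B1-AS1, MLLT4-AS1 and NDUFA6-AS1) and 1 fell (STAM-AS1), or 7.27% in all, against 15.3% of all tested genes. MAN1B1-AS1 and STAM-AS1 lost their calls without replicate 2 of the miR-10b dox group (adjusted p = 0.14 and 0.21, edgeR). The median log2 fold change was 0.0972, against 0.0672 over all members and 0.0211 over all tested genes. With miR-10a the median was -0.00171. The 19 members now annotated as protein-coding had sums of 397 to 411 and 405 to 413 CPM in the miR-10b groups, which overlapped.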
